A study of Dugesia japonica with 157 samples.

Results

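The mid trunk of the planarian Dugesia japonica, sections 33 to 45 of a series cut from front to back, was compared with the anterior trunk just in front of it, sections 20 to 32. Each section is 1 library of polyadenylated RNA, so that 26 of the 78 sections of the anterior-posterior series, and 26 of the 157 libraries of the whole study, are described here. The regions were set by section number, 13 sections each, with earlier results of these data known. Sections under 154520 estimated counts, 20% of the median over the 78 columns, were to be dropped, and none of the 26 fell under it.

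Both regions come from the same series of sections through strain AF animals, labelled as whole tissue. The study also holds a dorsal-ventral series of 28 sections and a right-left series of 51. No treatment, genotype or age is given, and no replicate animals are labelled for any direction, so the sections stand in for replicates: p-values measure the spread between sections of 1 series, and neighbouring sections share tissue. The names mid trunk and anterior trunk are positions in the section order. The tables hold identifiers of the form DjGI and a number with no gene names beside them, so markers of pharynx, gut, muscle or nerve cells could not be looked up to check these names, and no organ is assigned to a section here.

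Planarians are flatworms with a head, a trunk and a tail and no body cavity. As background, the gut has a single main branch in the anterior trunk and a pair of main branches behind it, which run along both sides of the pharynx, a muscular feeding tube that lies in a pouch in the middle of the body. Muscle cells along the body express signals of position, with Wnt signalling strong at the tail and weak at the head. Serial sectioning with sequencing of each section reads the place of a transcript from the section numbers.

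Section totals ran from 292379 to 12945391 estimated counts in the mid trunk (median 825916) and from 244413 to 9225713 in the anterior trunk (median 758136). The mean log10 total was 6.18 ± 0.55 (SD, n = 13) in the mid trunk and 6.12 ± 0.47 (SD, n = 13) in the anterior trunk, a difference of 0.0609 that was smaller than the spread between sections (permutation test, two-sided, p = 0.759). A median of 6912 genes was detected per mid trunk section and of 7628 per anterior trunk section, where a gene means a row of the table with at least 1 count. The mean numbers, 8931 ± 3559 in the mid trunk and 8799 ± 3286 in the anterior trunk (SD, n = 13 each), did not differ beyond the spread between sections (permutation test, two-sided, p = 0.918), nor did those after thinning to 244413 counts per section, 7005 ± 1927 in the mid trunk and 7027 ± 1888 in the anterior trunk (permutation test, two-sided, p = 0.979). Section 40 of the mid trunk stood apart: its 10 most abundant genes took 60.0% of its counts, against 26.4% to 49.0% in the other 25 sections, and its scaling factor of 0.791 was the lowest of the 26. The calls and fold changes between the regions, and the tests within the mid trunk, are also given below without it.

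In the edgeR test 11 transcripts were called between the regions, and all 11 were higher in the mid trunk. They were picked out of 14429 genes that reached 5 counts in 3 or more of the 26 sections, at an adjusted p under 0.05 in edgeR's quasi-likelihood test, so that 0.0762% of the genes tested were called. Their mean level in the mid trunk ran from 21.1 to 1422 CPM (counts scaled to a common library depth), against 0.00773 to 31.4 CPM in the anterior trunk, and their log2 fold changes from 2.37 to 9.50, with a median of 5.46. Over the 14429 genes together the median was -0.01. In bulk sections, more cells of a kind and more RNA per cell cannot be told apart.

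No gene was called lower in the mid trunk by edgeR (0 of 14429; at an unadjusted p under 0.05 there were 542 higher genes, 3.76%, and 409 lower ones, 2.83%). Limma-trend also called 0 lower genes, with 10 higher, while DESeq2 called 24 higher and 5 lower genes, and left 8113 of the 14429 genes without an adjusted p. The split of the calls thus depended on the fit: with the section total in the model there were 27 higher and 22 lower genes, without a gene filter 807 and 813, and with section number as a number in place of the 2 regions 51 and 27. Between an adjusted p of 0.05 and 0.1 lay a further 106 higher and 55 lower genes, and the lowest adjusted p of a lower gene was 0.0721.

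Abundant transcripts differed little between the regions. Of 953 genes averaging 100 CPM or more, 939 (98.5%) had a log2 fold change between -1 and 1, and 3 were called. Their median log2 fold change was -0.06, and their 10th and 90th percentiles were -0.45 and 0.37. The 11 called transcripts all lay among the 5273 genes averaging 10 CPM or more, whose fold changes had a median SE of 0.63 on the log2 scale.

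**Figure D1:**
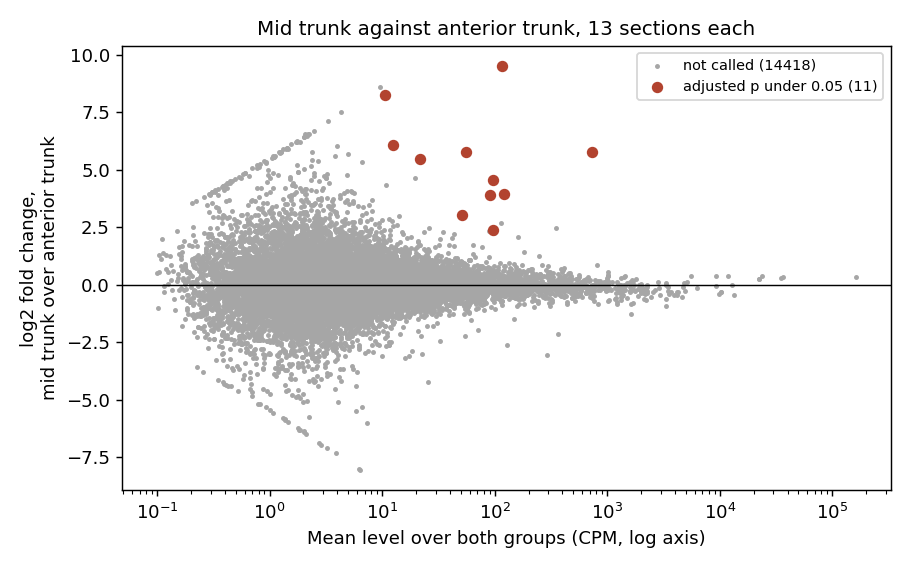
Log2 fold change of mid trunk over anterior trunk (vertical axis) against the mean level over both regions in CPM (horizontal log axis), 1 point per gene, 13 sections each. The 11 called transcripts (red) lie between 2.37 and 9.50, and genes not called are in grey.

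DjGI016985_001 had the largest fold change. Its level in the 13 mid trunk sections had a lowest value of 0 CPM, a median of 80.8 CPM and a highest value of 824 CPM, against 0, 0 and 1.63 CPM in the 13 anterior trunk sections. It was counted in 12 mid trunk sections and 3 anterior trunk sections, with 3571 and 7 counts in all. It passed the count filter only through its mid trunk counts. Its means were 234 ± 292 CPM (SD, n = 13) in the mid trunk and 0.21 ± 0.483 CPM (SD, n = 13) in the anterior trunk, a log2 fold change of 9.50 ± 1.16 SE (edgeR, adjusted p = 6.27e-06). The regions overlapped through sections 33 and 34 of the mid trunk, at 0 and 0.562 CPM, and the other 11 mid trunk sections lay above every anterior trunk section. Within the mid trunk the level was highest from section 36 to section 42, with section 40 as a gap: 500, 276, 824 and 322 CPM in sections 36 to 39, 15.4 CPM in section 40, and 755 and 213 CPM in sections 41 and 42. Behind them it was 37.7, 12.7 and 3.09 CPM in sections 43 to 45.

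DjGI011048_001 was next by fold change and far less abundant. It had 0, 12.5 and 78.2 CPM as lowest, median and highest value in the mid trunk, and 1 count in the whole anterior trunk, in section 23, against 910 counts in 10 mid trunk sections. It too passed the count filter only through its mid trunk counts. The ratio of pooled levels was 683, and its 95% counting interval, exact Poisson, ran from 123 to 26986 and covers counting error only. The means were 21.1 ± 25.6 CPM (SD, n = 13) in the mid trunk and 0.00773 ± 0.0279 CPM (SD, n = 13) in the anterior trunk (log2 fold change 8.26 ± 1.08 SE, edgeR, adjusted p = 1.84e-05). On a linear scale the edgeR fold change is 306, so with 1 anterior trunk count the estimates of its size differ widely. Its highest sections were 41, 42 and 44, at 78.2, 55.6 and 56.1 CPM, with 15.8 CPM in section 43 and 0 to 21.4 CPM in sections 33 to 40. The highest section of DjGI016985_001 was further forward, section 38, but section 41 was high for it too, at 755 CPM.

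The most abundant of the 11, the fifth by fold change, was present in every section of both regions. Its lowest, median and highest values were 55.3, 1587 and 3461 CPM in the mid trunk and 1.59, 15.5 and 87.6 CPM in the anterior trunk. The means were 1422 ± 985 CPM (SD, n = 13) in the mid trunk and 27.5 ± 30.7 CPM (SD, n = 13) in the anterior trunk (log2 fold change 5.75 ± 0.66 SE, edgeR, adjusted p = 2.31e-06, the lowest of the 14429). It changed sharply between neighbours, from 99.0 CPM in section 33 to 2208 CPM in section 34 going back, and at the rear end from 1587 CPM in section 44 to 232 CPM in section 45. Section 40 held 55.3 CPM, less than 2 of the anterior trunk sections, and was the only mid trunk section below the highest anterior one.

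**Figure D2:**
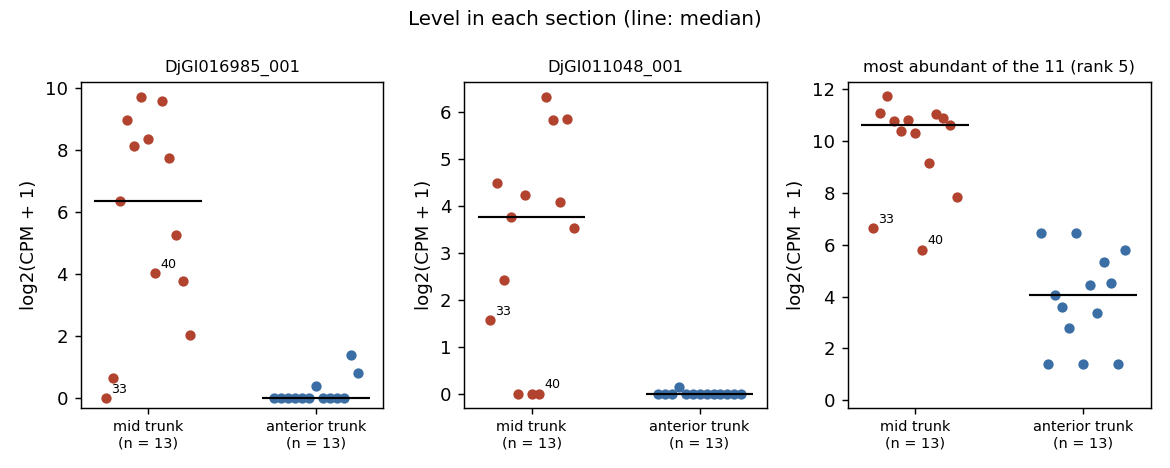
Level in log2(CPM + 1) in each of the 13 mid trunk sections (red) and 13 anterior trunk sections (blue), for DjGI016985_001, DjGI011048_001 and the most abundant of the 11 transcripts; lines are medians and points run in section order within a region. Sections 33 and 40 are labelled; in the right panel section 40 alone, at 55.3 CPM, lies below the highest anterior trunk section.

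The other 8 fell into those nearly absent from the anterior trunk and those present in both regions. In the first kind, 3 transcripts averaged 24.6 to 109 CPM in the mid trunk, against 0.225 to 2.22 CPM in the anterior trunk, with log2 fold changes of 5.46 to 6.06. One of these, the third by fold change, had 54.4% of its summed level in section 35 and a mid trunk median of only 0.794 CPM. In the second kind, 5 transcripts averaged 90.4 to 227 CPM in the mid trunk, against 8.00 to 31.4 CPM in the anterior trunk, with log2 fold changes of 2.37 to 4.57. In all, 6 of the 11 would have passed the count filter in the anterior trunk alone. The other 5, DjGI016985_001 and DjGI011048_001 among them, passed through their mid trunk counts. For these 5 a difference was thus built into the filter.

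None of the 11 had regions that did not overlap, and over all 14429 genes the share was 0% too. The 11 had from 6 to 12 of their 13 mid trunk sections above the highest anterior trunk section, with a median of 10. Of the 143 pairs of a transcript and a mid trunk section, 37 lay at or below the highest anterior trunk section, 15 of them in sections 33 and 40. In section 36 all 11 transcripts were above their highest anterior value, in sections 41 to 44 10 of them were, and in sections 34 and 45 9 were, in sections 35 and 38 8 were and in sections 37 and 39 7 were. In section 33 there were 5 and in section 40 there were 2. Summed over the 11, the level was 353 CPM in section 33 and 204 CPM in section 40, against 671 CPM in section 45, 2363 to 5170 CPM in the other 10 mid trunk sections and 49.1 to 212 CPM in the anterior trunk. Section 33 is the deepest of the 26, at 12945391 counts, and section 40 is at the median depth of the mid trunk, at 825916 counts. Without section 40 edgeR called 16 genes, all higher, and without section 33 it called 12 higher genes and 1 lower one, and each set held all 11. The log2 fold changes of the 11 without section 40 ran from 2.43 to 9.62. With both left out there were 16 higher genes and 1 lower one. The count also depended on section 25 of the anterior trunk, whose 10 most abundant genes took 49.0% of its counts: without it there were 17 higher genes and 1 lower one. Leaving out each of the 26 sections in turn, 7 of the 11 were called every time, while the third by fold change lost its call in 12 fits, the sixth in 1, the tenth in 17 and the eleventh in 10.

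The 11 did not all begin and end at the same section. On 1 common scale for all kept sections from 8 to 78, 10 of the 11 reached their highest value inside the mid trunk, and 7 had over 80% of their summed level there, with a range of 37.9% to 97.7% and a median of 85.9% (37.1% to 97.7% and 85.9% without section 40). The 11 were selected for higher levels in these same sections, so this was partly built in. The matching share over all genes was not computed. The most abundant one stepped up between sections 33 and 34, at 101 and 2278 CPM, the ninth by fold change already between sections 32 and 33, at 12.4 and 148 CPM, and DjGI016985_001 only between sections 34 and 35, at 0.58 and 84.1 CPM. The third by fold change was at most 7.90 CPM in every mid trunk section behind section 36. In section 46, the first behind the mid trunk, 10 of the 11 were under 20% of their own mean over sections 34 to 39 and 41 to 44, as were 4 in section 45, 8 in section 33 and 9 in section 40. DjGI011048_001 was the one above that level in section 46, at 9.74 CPM. The transcript that reached its highest value outside the mid trunk was the eleventh by fold change. Its mean was 168 CPM in the mid trunk, 33.6 CPM in the anterior trunk and 179 CPM in sections 8 to 19, with its highest section, 12, in front of the trunk, so that it had a second high region toward the head. DjGI016985_001 was also counted at 54.2 CPM in 1 section of the tail region, section 71.

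**Figure D3:**
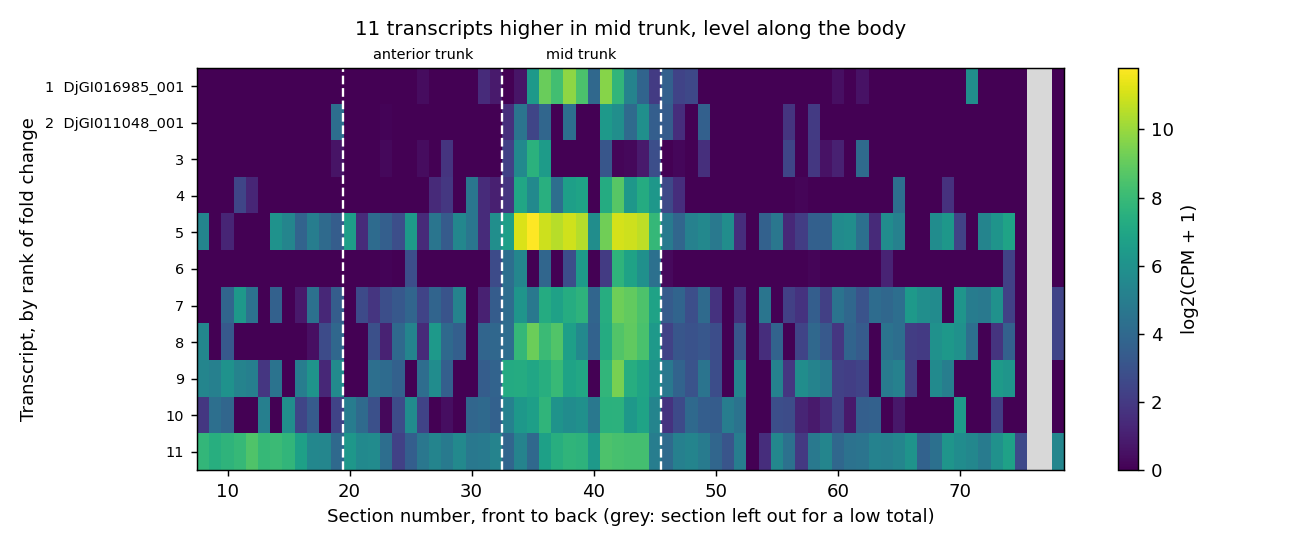
Level in log2(CPM + 1) of the 11 called transcripts (rows, by rank of fold change) in sections 8 to 78 from front to back (columns); dashed lines bound the anterior trunk and the mid trunk, and grey marks 2 sections left out for low totals. Most of the highest values lie between sections 34 and 45, with low values at section 40, and the eleventh row is also high in front of section 16.

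The sections around the trunk, which the comparison did not use, were compared in the same direction, with sections 46 to 54 as the rear flank (n = 9) and sections 8 to 19 as the front flank (n = 12). Of 12481 genes, 142 (1.14%) were higher in the rear flank and 50 (0.401%) lower. Of the 11 trunk transcripts, 8 had enough counts to be tested there, 0 were called higher and 1 was called lower. That one was the eleventh by fold change (log2 fold change -3.34 ± 0.57 SE, edgeR, adjusted p = 0.000546). On the common scale of all kept sections its means were 19.2 CPM in the rear flank and 179 CPM in the front flank. On that scale DjGI016985_001 averaged 2.28 CPM in the rear flank, and it was at 0 counts in the front flank (edgeR, adjusted p = 0.0503). The 8 had a median log2 fold change of -0.45, against -0.25 over all genes. With the section total in the model the flanks differed in 149 higher and 222 lower genes, and with limma-trend in 84 and 38.

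Each region was then divided along its length, leaving out its central section. Between sections 40 to 45 and sections 33 to 38 of the mid trunk (n = 6 each), 1 of 12403 genes was called, DjGI017863_001, and it was lower in the rear part. Its lowest, median and highest values were 0, 2.33 and 9.10 CPM in the rear part and 21.9, 201 and 294 CPM in the front part. The parts did not overlap, and the share of all 12403 genes without overlap was not counted. The means were 3.12 ± 3.70 CPM in the rear part and 174 ± 120 CPM in the front part (SD, n = 6 each; log2 fold change -5.63 ± 0.93 SE, edgeR, adjusted p = 0.0461). Over the whole regions it was not called, at 82.4 ± 119 CPM in the mid trunk and 92.7 ± 83.6 CPM in the anterior trunk (SD, n = 13 each; log2 fold change -0.17 ± 0.79 SE, edgeR, adjusted p = 0.999). On the common scale of all kept sections, this transcript was at 64.3 to 145 CPM from section 17 to section 19 and at 0 to 92.0 CPM from section 20 to section 26. Its highest values lay within sections 27 to 36, with section 29 low at 32.3 CPM. It was at most 9.40 CPM in every section from 39 to 60, with 54.1 CPM in section 69 of the tail region. The call was lost in 9 of the 12 fits that leave out 1 section (each of 33 to 37, 41, 42, 44 and 45). Over all 12 fits edgeR gave an adjusted p between 0.0214 and 0.167 and a log2 fold change between -6.22 and -5.39, and without section 40 the values were 0.039 and -5.42.

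The anterior trunk had its own internal difference. Between sections 27 to 32 and sections 20 to 25 (n = 6 each), 1 of 11346 genes was called, DjGI018869_001, and it was higher in the rear part (0.00881% called, and 3.45% at an unadjusted p under 0.05). Of the 11 trunk transcripts 6 could be tested there, and 0 were called or had an unadjusted p under 0.05. DjGI018869_001 had 410, 1048 and 1554 CPM as lowest, median and highest value in the rear part. In the front part these were 0, 22.0 and 102 CPM. There was no overlap, and the share of all 11346 genes without overlap was not counted. The means were 999 ± 475 CPM in the rear part and 32.6 ± 38.6 CPM in the front part (SD, n = 6 each; log2 fold change 4.91 ± 0.79 SE, edgeR, adjusted p = 0.0234). It kept a high level through the front of the mid trunk, where on a scale common to both regions sections 40 to 45 averaged 315 ± 208 CPM and sections 33 to 38 averaged 858 ± 369 CPM (SD, n = 6 each), and over the whole regions it was not called, at 577 ± 387 CPM in the mid trunk and 478 ± 561 CPM in the anterior trunk (SD, n = 13 each; edgeR, adjusted p = 0.999). Its call was lost with the section total in the model (edgeR, adjusted p = 0.0566) and in 8 of the 12 fits that leave out 1 section (20, 22 to 24, 28 and 30 to 32), where edgeR gave an adjusted p of at most 0.113.

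**Figure D4:**
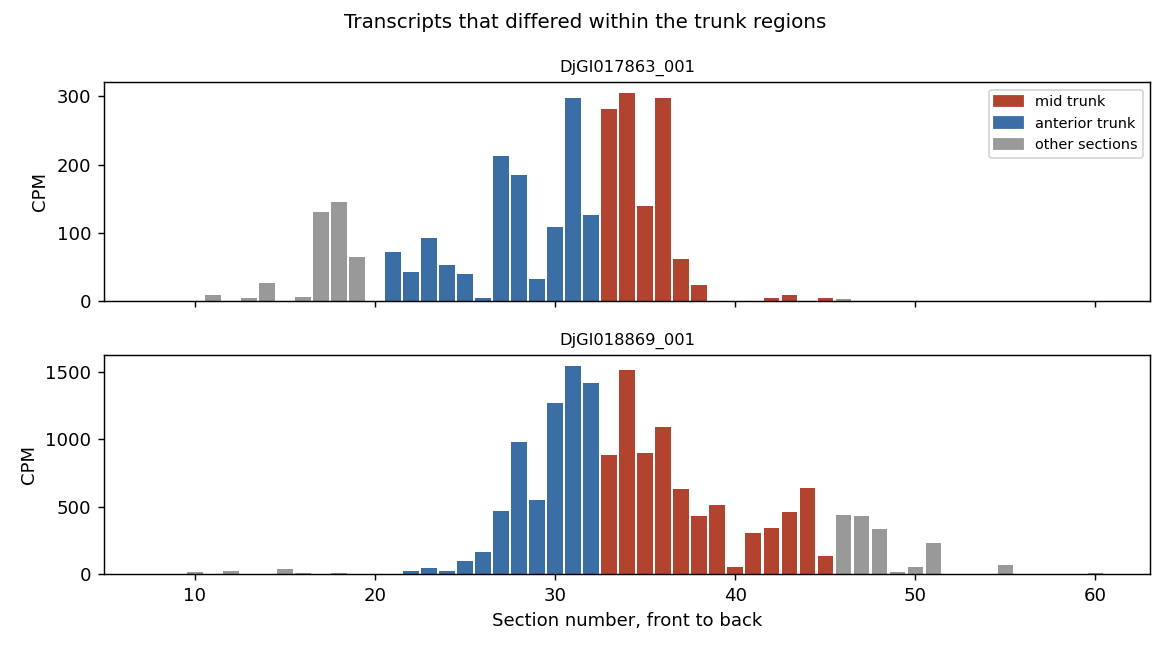
Level in CPM by section, from section 8 to section 60, of DjGI017863_001 (top) and DjGI018869_001 (bottom), 1 bar per section, with the mid trunk in red, the anterior trunk in blue and other sections in grey. The first has its highest bars in sections 31, 33, 34 and 36 and is at most 9.40 CPM from section 39 to section 60. The second is at least 464 CPM in all of sections 27 to 32.

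A test of the difference between the comparisons within the 2 regions, added after they had been seen, called 4 of 14298 genes (0.028%), all with a rear-over-front log2 fold change that was lower in the mid trunk than in the anterior trunk. DjGI017863_001 and DjGI018869_001 were among them, with interaction log2 values of -7.21 ± 1.21 SE and -6.38 ± 0.99 SE (edgeR, adjusted p = 0.00334 and 0.0016). Both had been picked by the comparisons within the regions, in the same sections, so these p-values are not separate support. Without section 40, an alternative also added after its values had been seen, the same 4 were called, with -6.996 and -6.14 for these 2. The other 2 were called in neither region alone, and their levels are given on the scale common to both regions. One averaged 65.5 and 237 CPM in the rear and front parts of the mid trunk and 256 and 8.86 CPM in the rear and front parts of the anterior trunk. The other averaged 174 and 1089 CPM in the rear and front parts of the mid trunk and 207 and 18.1 CPM in the rear and front parts of the anterior trunk. Of the 11, 0 were called in this test and 2 had an unadjusted p under 0.05, against 9.64% of all genes.

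Of the 11 trunk transcripts, 0 were called between the parts of the mid trunk, with log2 fold changes from -4.45 to 2.29 and a median of 0.44 (0.24 over all genes, of which 0.00806% were called), and 4 of the 11 had an unadjusted p under 0.05, against 4.02% of all genes. Their levels within the mid trunk were nonetheless not alike. The highest section was 35 or 36 for 4 of them, 38 for DjGI016985_001, and 41 or 42 for the other 6. Over the 13 mid trunk sections, 50 of their 55 pairs had a positive Pearson correlation of log2(CPM + 1), from -0.60 to 0.86 with a median of 0.46, and without section 40 the median was 0.38. These values describe libraries that share depth and composition.

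The right-left series, cut in other sections, placed 9 of the 11 in its middle part. Of 17061 genes tested there, 124 (0.727%) were higher in the middle part (sections 18 to 34, 15 kept) than in the mean of the right part (8 kept) and the left part (14 kept), and 9 of the 11 transcripts were among them. All 11 had a positive log2 fold change, from 1.03 to 6.54 with a median of 3.57, against a median of 0.07 over all genes. With the section total in the model 9 were again called. The overlap of genes of the middle of both series was known from earlier results of these data, and these 9 are not independent support for it.

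DjGI016985_001 had a lowest, median and highest value of 1.03, 170 and 340 CPM in the middle part, against 0, 1.15 and 146 CPM on the right and on the left 0, 0 and 1.90 CPM, so that the parts overlapped (log2 fold change 5.37 ± 0.72 SE, edgeR, adjusted p = 6.07e-06). The most abundant of the 11 had 7.33, 879 and 1665 CPM in the middle part, against 9.72, 38.2 and 70.8 CPM on the right and on the left 8.66, 21.8 and 50.4 CPM, again with overlap (log2 fold change 4.64 ± 0.55 SE, edgeR, adjusted p = 5.27e-07). DjGI011048_001 was 1 of the 2 not called, at 4.60 ± 6.05 CPM in the middle part (SD, n = 15), 4.17 ± 5.76 CPM on the right (SD, n = 8) and 0.611 ± 0.862 CPM on the left (SD, n = 14; log2 fold change 1.40 ± 0.71 SE, edgeR, adjusted p = 0.517). The other was the ninth by fold change (log2 fold change 1.03 ± 0.39 SE, edgeR, adjusted p = 0.278).

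The summed level, which the most abundant transcripts carry, was not high in the whole middle part. Summed over the 11, the level was 921 to 3190 CPM in the 10 kept sections from 18 to 29, against 112 to 293 CPM in sections 30 to 34, which are also in the middle part, and 54.8 to 384 CPM in the kept sections of both sides. The highest side section, 16, lies next to the zone and is the deepest of that series. The eleventh by fold change was an exception, at 54.9 to 252 CPM in sections 30 to 34 and 62.5 to 606 CPM in the kept sections from 18 to 29, and it made up 252 of the 293 CPM in section 32. The 5 sections from 30 to 34 were not shallow, at 1141316 to 7105233 counts.

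**Figure D5:**
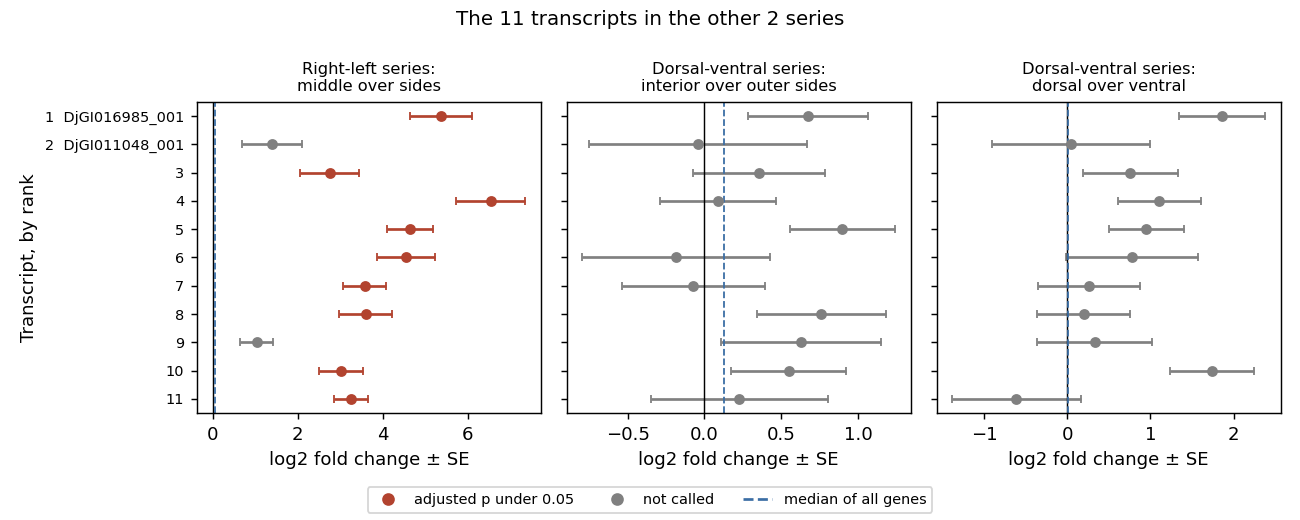
Log2 fold change with its standard error (horizontal axis) of the 11 transcripts (rows, by rank of fold change in the trunk) for the middle over the sides of the right-left series, the interior over the outer sides of the dorsal-ventral series and dorsal over ventral; the dashed line is the median over all genes and the scales differ between panels. In the left panel 9 transcripts were called (red), and in the other panels 0 were.

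From dorsal to ventral the same transcripts showed no call. In the comparison of the interior (9 kept sections) with the mean of the dorsal (5) and ventral (7) parts, 0 of the 11 were called, where 6.81% of 18291 genes were, 1 had an unadjusted p under 0.05 (21.7% of all genes), and their log2 fold changes lay between -0.19 and 0.90. Between the dorsal and ventral parts 0 of 11 were called (0.465% of all genes) and 4 had an unadjusted p under 0.05 (12.5% of all genes), while 10 of 11 values were above 0, with a median of 0.76 against 0.01 over all genes. The largest was that of DjGI016985_001, at 123 ± 45.3 CPM dorsally (SD, n = 5) and 33.4 ± 33.6 CPM ventrally (SD, n = 7; log2 fold change 1.86 ± 0.52 SE, edgeR, adjusted p = 0.103), with 103 ± 31.3 CPM in the interior (SD, n = 9). With standard errors of 0.45 to 0.95 on the log2 scale, the missing calls do not show that the levels on both sides were equal.

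None of the 11 shared the first part of its identifier with another row. The 25566 rows have 19543 distinct first parts, and each of the 11 is the only row of its own, so its reads were not divided between rows of 1 first part. Without sequences, similar transcripts under other first parts could not be looked for.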

How the data were processed

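Libraries were made from single tissue sections with the Lasy-Seq protocol, per the labels' protocols. The authors deposited estimated counts per transcript, 1 column per section. Salmon, BWA 0.7.17-r1188, fastp 0.21.0 and bcl2fastq 2.20.0 are listed in the submitters' processing notes. The sources used here do not give the transcript set or strand setting. Of 4013862 values, 1028 (0.0256%) were not whole, and all were rounded.

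Genes with 5 or more counts in 3 or more of the sections compared were tested with the quasi-likelihood test of edgeR 4.0.16 in R 4.3.3, on TMM-scaled counts with Benjamini-Hochberg adjustment over all genes tested and a threshold of 0.05. CPM in the text carry the scaling of the sections in that comparison, or of all kept sections where a common scale is named. The SE of an edgeR log2 fold change is its absolute value over the square root of the F statistic of the test. Totals and genes detected were compared with a permutation test in SciPy 1.17.1 (100000 resamples). Alternatives used DESeq2 1.42.0, limma 3.58.1, other filters, thinned counts, the section total as a covariate and sections left out. The edgeR fit was also run on simulated counts drawn independently for each section. That run could not check the effect of neighbouring sections sharing tissue.

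At most 2 identifiers per direction were to be named, by fold change, from called genes averaging 10 CPM or more in the higher group, counted in at least 50% of its sections, and with at most 50% of their level in 1 section. Without gene names or a transcript set, the marker lists drawn up for organs and cell types could not be matched, and no sequence is printed. The regions, members and lists were chosen with earlier results of these data known. Section totals of 244413 to 12945391 counts limit the counting precision, which is lowest in the shallow sections, and intervals cover counting error only. The spread between sections beyond counting error, as a biological coefficient of variation, was 1.44 in the trunk fit.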

Additional observations from a re-analysis of the deposited data

Results flagged for a closer look

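In the rear flank, on the common scale of all kept sections, DjGI016985_001 had 11.4 CPM in section 46, the section next to the mid trunk. The other 8 sections had 0 to 4.91 CPM. The gap to the nearest of them was 0.57 of the whole range, above the critical value of 0.493 for 9 samples. The rule behind it picks out some groups by chance alone.

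The rear-over-front log2 fold change of DjGI017863_001 differed between the mid trunk and the anterior trunk by -7.21 (edgeR, adjusted p = 0.00334, 24 sections), and that of DjGI018869_001 by -6.38 (edgeR, adjusted p = 0.0016). This test was added after the comparisons within each region had been seen.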

How the results depend on the processing

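The 11 calls between mid trunk and anterior trunk became 29 with DESeq2, 1620 without a gene filter, 49 with the section total in the model, 78 with section number as a number, and 17 without sections 33 and 40, an alternative chosen after seeing the data. They ranged from 8 to 18 with 1 section left out. The other settings gave 10 to 15 calls. The call was lost for the third transcript by fold change with limma-trend, thinned counts, section number or without sections 31 to 34 (it had no adjusted p with DESeq2 and did not pass the stricter filter), for the sixth and eleventh with limma-trend, and for the tenth with section number or without sections 31 to 34. No fold change of the 11 turned its sign in the settings run. The flanks gave 371 calls with the section total and 122 with limma-trend, the anterior trunk comparison 0 and 2, and the dorsal-ventral interior comparison 196 with the section total. Leaving out 1 section gave 0 to 1 calls within the mid trunk and 0 to 3 within the anterior trunk. The difference in genes detected, 132, was -22.2 after thinning. The cause of these shifts was not tested. No paired analysis was possible because the section numbers are positions and the groups compared share none of them. The shallowest sections limit what rare transcripts can show.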
